A study of Homo sapiens with 5 samples.

Results

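The 8 genes described here, NEUROG1, NEUROG2, NEUROD1, NEUROD2, NEUROD4, NEUROD6, NHLH1 and EOMES, encode transcription factors of the path from neural progenitor to excitatory neuron. They were chosen by name, as proneural basic helix-loop-helix (bHLH) genes and factors of intermediate progenitors, and all 8 are among the 32732 genes listed in the annotations of every library. Each had UMIs in all 5 libraries, between 62 for NEUROG1 in PFC_4MPT and 15455 for NEUROD6 in D0. A unique molecular identifier (UMI) marks 1 captured RNA molecule, and levels are given as CPM, the UMIs of a gene per 1000000 UMIs of the same cells.

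Human brain organoids were made from the human embryonic stem cell line H9, in a derivative that carries ChR2-EYFP, a light-gated channel fused to a fluorescent protein, at the AAVS locus. All 5 groups share this line. D0 was the organoids themselves at day 42 in vitro, not yet transplanted, and HIP_2MPT, PFC_2MPT, HIP_4MPT and PFC_4MPT held grafts taken from the hippocampus (HIP) or prefrontal cortex (PFC) of immunodeficient SCID-Beige mice at 2 or 4 months post transplantation (MPT). There was 1 droplet library per condition, made from pooled organoids or hosts, so the HIP and PFC libraries of a stage served as its 2 replicates and D0 had none. After filtering, the libraries held 4885 to 8363 human cells with a median of 1253 to 9847 UMIs per cell, deepest in D0. D0 was dissociated with TrypLE and grafts with Trypsin-EDTA, and D0 was counted with another annotation and an earlier Cell Ranger release, per the file headers, which cannot be told apart from transplantation. In whole libraries, fewer cells of a type and less RNA per cell cannot be told apart either.

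bHLH factors bind DNA as pairs, usually a tissue-specific member with a broadly expressed E protein, at the E-box, the letters CANNTG. In the developing cortex, NEUROG1 and NEUROG2 act in progenitors that are about to produce neurons, the NEUROD genes and NHLH1 follow in their daughters, and EOMES (also called TBR2), which belongs to the T-box and not to the bHLH family, marks intermediate progenitors, the cells that divide between radial glia and glutamatergic neurons. ID proteins hold E proteins in inactive pairs, and HES and HEY proteins repress proneural genes under Notch signalling.

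The promoters of NEUROD6, NHLH1 and NEUROD4 are shown as those of the genes called lower at 4MPT than at 2MPT that hold an E-box and lie outside annotated gene bounds. Of the other genes called lower, NEUROG2 has no match in its window, and the window of NEUROD2 lies inside the GENCODE bounds of its gene. NEUROD6 and NHLH1 also had the most similar patterns of any pair of members. Each is the 250 bases before the RefSeq start of the gene on GRCh38.p14, written 5′ to 3′ on the strand of the gene, with each CANNTG in capitals. The windows are chr7:31340727-31340976 on the minus strand for NEUROD6, chr1:160366821-160367070 on the plus strand for NHLH1 and chr12:55019724-55019973 on the plus strand for NEUROD4.
NEUROD6: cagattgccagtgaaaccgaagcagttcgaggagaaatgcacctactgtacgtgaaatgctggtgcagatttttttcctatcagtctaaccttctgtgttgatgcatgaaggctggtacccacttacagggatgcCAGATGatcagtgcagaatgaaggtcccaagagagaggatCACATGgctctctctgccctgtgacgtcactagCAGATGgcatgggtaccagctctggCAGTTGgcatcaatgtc
NHLH1: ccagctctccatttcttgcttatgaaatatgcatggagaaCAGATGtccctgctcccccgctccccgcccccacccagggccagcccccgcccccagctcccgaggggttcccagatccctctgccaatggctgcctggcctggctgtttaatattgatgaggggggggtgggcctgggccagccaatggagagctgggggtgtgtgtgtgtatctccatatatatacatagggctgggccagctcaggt
NEUROD4: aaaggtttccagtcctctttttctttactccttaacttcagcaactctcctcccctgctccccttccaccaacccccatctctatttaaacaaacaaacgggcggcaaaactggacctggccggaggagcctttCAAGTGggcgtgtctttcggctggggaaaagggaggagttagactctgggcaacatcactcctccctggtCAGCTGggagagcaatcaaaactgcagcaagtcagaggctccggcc

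NEUROD6 had 4 matches to CANNTG in this window, NHLH1 1 and NEUROD4 2. Over all 35116 RefSeq promoters cut to the same window, 61.8% held at least 1 match, and 5 of the 8 members did. The windows of NEUROD1, NEUROD2 and EOMES lie inside the GENCODE bounds of their genes, so those of NEUROD2 and EOMES, counted among the 5, may not be promoters in that annotation. The form CAGATG, or CATCTG on the other strand, which is known as a preferred site of NEUROG and NEUROD proteins and is itself a CANNTG, was in 12.2% of all promoters and in those of NEUROD2, NEUROD6 and NHLH1. In NEUROD6 it began 115 and 42 bases before the start, and in NHLH1 210 bases before it. CAGCTG, its own reverse complement, was in 14.0% of promoters and in that of NEUROD4. Matches are letters in the reference and were not tested for binding.

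NEUROG2 (ENSG00000178403, chromosome 4, 112513516 to 112516180, minus strand; this and the following positions are those of GENCODE v44 on GRCh38) is the proneural factor that starts the excitatory neuron programme in dorsal progenitors. Over all human cells it stood at 165 CPM in D0. At 2MPT the HIP graft had 103 and the PFC graft 126 CPM, and at 4MPT they had 25.4 and 45.3 CPM. The ranges of the 3 stages did not overlap, and the order was D0, 2MPT, 4MPT. NEUROG2 was lower at 4MPT than at 2MPT by −1.63 on the log2 scale (standard error 0.31, edgeR adjusted p = 0.0210), while 2MPT against D0 gave −0.90 (0.35, adjusted p = 0.0566). In this and each later comparison with D0, the single D0 library is assumed to vary like the graft libraries of a stage, since its own spread was not measured. The call was lost when either 4MPT library was left out (adjusted p = 0.104 and 0.0818). The gene overlaps NEUROG2-AS1 on the other strand.

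NEUROG1 (ENSG00000181965, chromosome 5, 135534282 to 135535964, minus strand), its close relative, had no common course. D0 was at 10.8 CPM, the HIP grafts were at 7.05 CPM (2MPT) and 13.5 CPM (4MPT), and the PFC grafts at 32.2 CPM (2MPT) and 3.72 CPM (4MPT). The highest and the lowest values were both of PFC grafts, both stages overlapped, and no stage comparison called it (adjusted p = 0.477 for 4MPT against 2MPT). It overlaps SLC25A48 on the other strand.

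The NEUROD genes act downstream, as daughter cells become neurons. NEUROD1 (ENSG00000162992, chromosome 2, 181668295 to 181680827, minus strand) was at 39.1 CPM in D0, at 25.7 (HIP) and 23.9 CPM (PFC) in grafts of 2MPT, and at 18.7 (HIP) and 28.3 CPM (PFC) in grafts of 4MPT. All graft libraries lay below D0, and both graft stages overlapped. It was lower at 2MPT than in D0 (log2 −1.03, standard error 0.31, edgeR adjusted p = 0.0197). By CPM the fall was smaller, to 0.66 (HIP) and 0.61 (PFC) of the D0 level. The test scales libraries by TMM and CPM does not, so in comparisons with D0 log2 differences and ratios of CPM differ in size. NEUROD1 overlaps CERKL on the same strand, so the assignment of reads there is uncertain.

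NEUROD2 (ENSG00000171532, chromosome 17, 39603536 to 39609777, minus strand) acts in postmitotic excitatory neurons. Its level of 81.4 CPM in D0 compares with 483 (HIP) and 396 CPM (PFC) at 2MPT and with 162 (HIP) and 186 CPM (PFC) at 4MPT. Its stages did not overlap, and it rose from D0 to 2MPT (log2 2.06, standard error 0.32, adjusted p = 0.000483) and was lower again at 4MPT (−1.27, 0.24, adjusted p = 0.0200). NEUROD2 alone among the members was called higher at 4MPT than in D0 (0.78, 0.30), with an edgeR adjusted p of 0.0475 that passed the threshold in 3 of 7 other settings.

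NEUROD4 (ENSG00000123307, chromosome 12, 55019974 to 55030017, plus strand) was the member with the fewest UMIs in D0, 402. It stood at 7.20 CPM there, at 24.1 (HIP) and 20.4 CPM (PFC) in 2MPT grafts, and at 5.997 (HIP) and 6.003 CPM (PFC) in 4MPT grafts. It was high at 2MPT alone, with both other stages below either 2MPT library (2MPT against D0, log2 1.25, standard error 0.34, edgeR adjusted p = 0.0121, and 4MPT against 2MPT, −1.83, 0.28, 0.00726).

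NEUROD6 (ENSG00000164600, chromosome 7, 31337465 to 31340726, minus strand) marks dorsal excitatory neurons. D0 had 277 CPM of it, the 2MPT grafts had 428 (HIP) and 264 CPM (PFC), and the 4MPT grafts had 38.1 (HIP) and 69.6 CPM (PFC). D0 lay between the 2MPT libraries, and both 4MPT libraries were far below all others, by −2.61 on the log2 scale against 2MPT (standard error 0.35, edgeR adjusted p = 0.00364). NHLH1 (ENSG00000171786, chromosome 1, 160367071 to 160372846, plus strand), a bHLH factor of newly born neurons, put the libraries in the same order, with 80.9 CPM before transplantation, 151 (HIP) and 56.0 CPM (PFC) at 2MPT, and 9.30 (HIP) and 14.5 CPM (PFC) at 4MPT. Its difference between 4MPT and 2MPT, −3.05 (0.43, adjusted p = 0.00472), was the greatest of the members in size.

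EOMES (ENSG00000163508, chromosome 3, 27715949 to 27722711, minus strand) rose from 25.4 CPM in D0 to 84.9 (HIP) and 91.8 CPM (PFC) at 2MPT, and had 58.2 (HIP) and 34.4 CPM (PFC) at 4MPT. Each graft library was above D0 and each 4MPT library below both of 2MPT. The rise from D0 to 2MPT passed the test (log2 1.43, standard error 0.34, edgeR adjusted p = 0.00574), and the difference between 4MPT and 2MPT did not (−0.89, 0.26, adjusted p = 0.129).

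**Figure D1:**
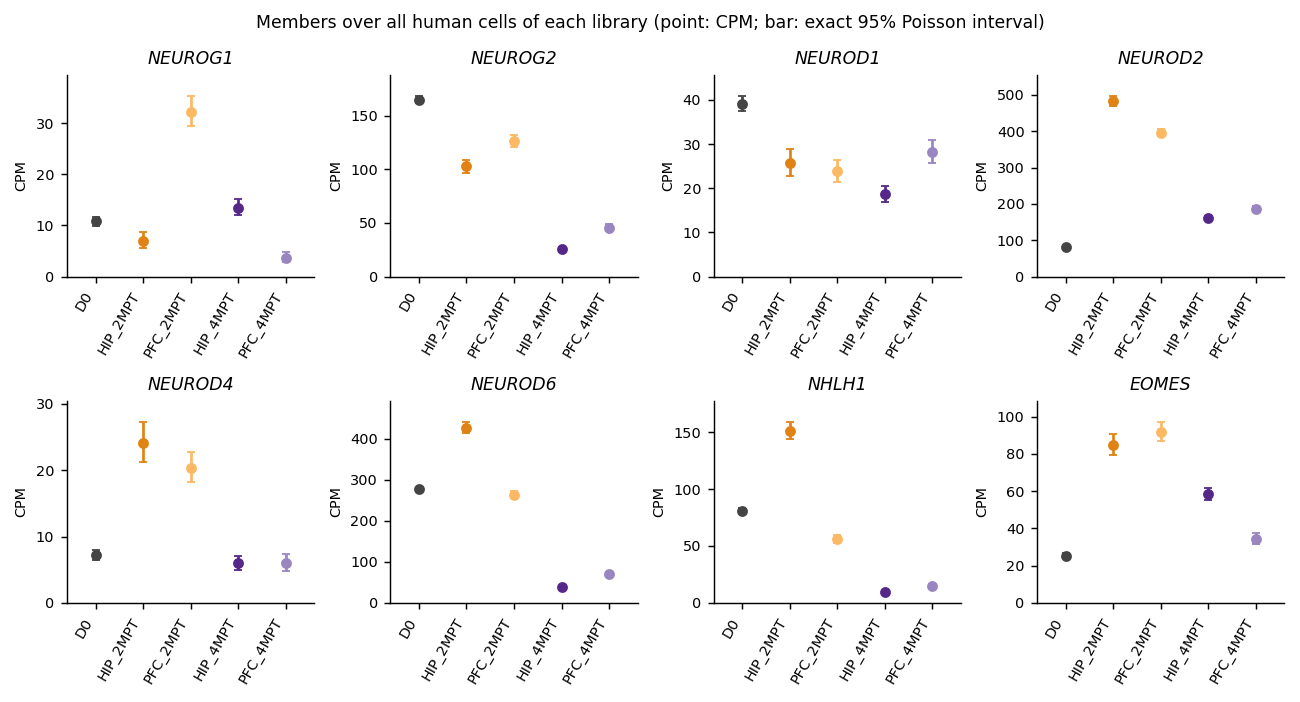
Level of each member in CPM (vertical axis, linear from 0) over all human cells of each library (horizontal axis), with 1 point per library and exact 95% Poisson intervals, which cover counting error only. NEUROG2, NEUROD6 and NHLH1 were lowest in HIP_4MPT and PFC_4MPT, and NEUROD2, NEUROD4 and EOMES were highest in HIP_2MPT and PFC_2MPT.

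Over all human cells, 5 of 8 members were called lower at 4MPT than at 2MPT (NEUROG2, NEUROD2, NEUROD4, NEUROD6 and NHLH1) and none higher, where 0.550% of the 19074 genes tested were called lower. The median log2 difference was −1.45 over the members and −0.01 over all genes. At 2MPT against D0, 4 of 8 members were called, with NEUROD2, NEUROD4 and EOMES higher and NEUROD1 lower, and 48.3% of all genes tested were called in either direction. Against D0, 4MPT had 5 members called, NEUROG2, NEUROD1, NEUROD6 and NHLH1 lower and NEUROD2 higher, with 50.1% of all genes. Both shares of members are thus near that of all genes. The 3 comparisons share libraries. The count of 5 at 4MPT against 2MPT rested on both late grafts. Without HIP_4MPT only NEUROD6 and NHLH1 were called, and without PFC_4MPT no member was, at adjusted p of 0.0730 or more. In the same comparison, 10 of 11 glial marks and 9 of 9 inhibitory neuron marks were called higher at 4MPT, where 352 of 19074 genes were. The part of these marks in the lower levels was not tested.

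Among cells with at least 1000 UMIs, the share in which NEUROD2 was found followed its CPM. That of NEUROG2 changed little from D0 to 2MPT and was lower at 4MPT. With each cell thinned to 1000 UMIs, a NEUROD2 UMI was in 7.04% of D0 cells, in 35.8% (HIP) and 30.7% (PFC) of cells at 2MPT, and in 16.2% (HIP) and 16.96% (PFC) at 4MPT. NEUROG2 was in 11.2% of D0 cells, 9.26% to 10.5% at 2MPT and 2.45% to 4.36% at 4MPT. Without thinning, NEUROG2 was in 46.8% of D0 cells, 13.0% to 22.4% at 2MPT and 6.59% to 8.16% at 4MPT, which shows how far the deeper D0 library raises such shares. In mouse host barcodes of the grafts, which should lack human transcripts, NEUROD2 was in 1.497% to 7.53% and NEUROG2 in 0.290% to 1.31%. NEUROG1 (0.298% to 2.05% of thinned cells) and NEUROD4 (0.478% to 2.23%) were found in few cells of any library.

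To order cells from progenitors to neurons, each cell with at least 1000 UMIs was thinned to 1000 UMIs, and its neuron share was taken as the UMIs of 14 neuron genes (such as DCX, STMN2 and MAPT) over those UMIs plus the UMIs of 14 progenitor genes (such as SOX2, VIM and PAX6). No member is in either list. Cells below a share of 0.25 are called the progenitor end, those from 0.25 to below 0.75 the middle and the others the neuron end, and cells with at least 2 UMIs of glial, inhibitory neuron or choroid plexus marks were set apart. The progenitor end held 2133 cells of D0 and 262 to 727 cells per graft, the middle 662 to 1644 and the neuron end 912 to 5222. Between 10.4% and 17.2% of ordered cells lay within 0.05 of a bound. Ordered cells had a median of 8 (PFC_4MPT) to 11 (HIP_2MPT) UMIs of both lists together. Few UMIs thus set the place of a cell, and cells farther from a bound can be misplaced too. Member UMIs were then summed in each range at full depth.

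Some members rose toward neurons, some were highest between both ends, and NEUROG1 and NEUROG2 followed neither course in every library. NEUROD2 rose from 11.4 CPM at the progenitor end to 134.9 in the middle and 284.5 at the neuron end of D0, and in the grafts from 13.7 to 57.4 CPM, through 245 to 356 CPM, to 303 to 551 CPM. NEUROD6 rose from 36.1 through 458 to 983 CPM in D0 and from 57.4 through 302 to 488 CPM in HIP_2MPT. The same 3 values were 9.02, 228 and 373 CPM in PFC_2MPT, and at 4MPT they were 4.23, 48.0 and 79.6 CPM for HIP, then 16.0, 83.9 and 128 CPM for PFC. Both genes were thus highest at the neuron end in 5 of 5 libraries. The 57.4 CPM of each at the progenitor end of HIP_2MPT rests on 21 UMIs, and the mouse host barcodes of that library held NEUROD2 at 48.7 and NEUROD6 at 54.3 CPM, so these values are not read as expression.

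NEUROD1 and NHLH1 rose from the progenitor end to the middle and had no common course after it. NEUROD1 was at 2.47 to 10.0 CPM at the progenitor end, 20.4 to 67.8 CPM in the middle and 28.1 to 109.9 CPM at the neuron end. NHLH1 was at 1.06 to 32.8, 19.9 to 150.6 and 12.3 to 195 CPM in the same order. From the middle to the neuron end of D0, NEUROD1 rose from 67.8 to 109.9 CPM and NHLH1 from 150.6 to 195 CPM. In HIP_4MPT, NHLH1 fell from 19.9 to 12.3 CPM. Each gene was highest in the middle in 2 libraries and at the neuron end in 3, so neither range stood out.

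EOMES and NEUROD4 were highest in the middle of the axis in 5 of 5 libraries. From the progenitor end through the middle to the neuron end, EOMES had 10.8, 55.3 and 22.4 CPM in D0, 84.7, 130.6 and 60.1 in HIP_2MPT, and 73.0, 157 and 49.1 in PFC_2MPT. At 4MPT it had 44.02, 103 and 50.1 CPM in HIP and 16.6, 53.1 and 36.5 CPM in PFC. In bins of neuron share, its top lay in the third bin (0.25 to 0.5) or the fourth (0.5 to 0.75) in each library, with 247 CPM in the third bin of PFC_2MPT. NEUROD4 had its top in the same 2 bins, at 9.75 to 47.6 CPM. The 2 genes were each other's most similar member over the 30 pools of library and bin (Pearson r = 0.84 of log2(CPM + 1), a description, since pools of a library share its depth and sequencing).

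NEUROG1 was a gene of the early and middle axis. It was at 4.30 to 46.8 CPM at the progenitor end and 4.91 to 66.3 CPM in the middle, and fell to 0.993 to 4.50 CPM at the neuron end. NEUROG2 was lowest at the neuron end in D0, with 190.4, 187 and 151 CPM, and rose in PFC_4MPT, with 13.5, 51.6 and 74.8 CPM. By range, it was highest at the progenitor end in 1 library, in the middle in 1 and at the neuron end in 3. By bin, its top lay nearer the progenitor end, in bin 2 in D0 (202 CPM) and HIP_2MPT (108 CPM from 23 UMIs), and in bin 3 in PFC_2MPT (162 CPM). At 4MPT its top lay in bin 6 in HIP (37.5 CPM) and in bin 5 in PFC (78.3 CPM). NEUROG2 is known as a progenitor factor, and its place on the axis differed between libraries.

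**Figure D2:**
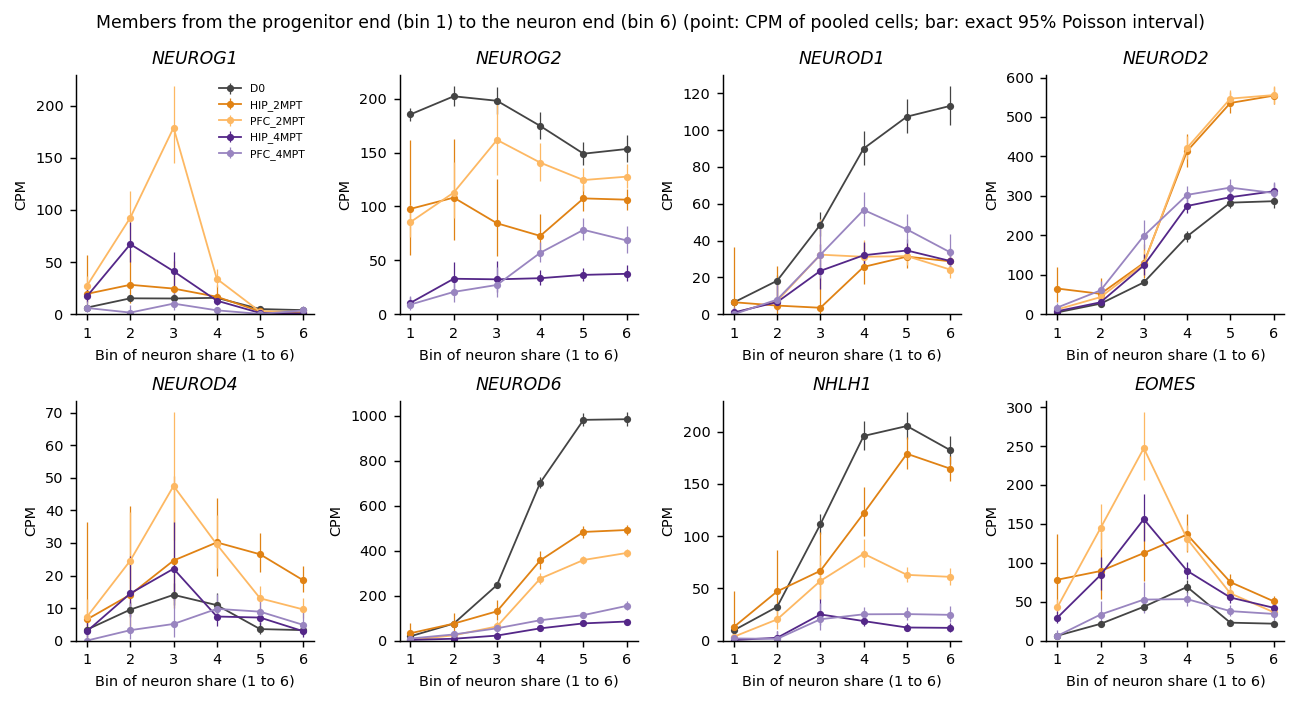
Level of each member in CPM (vertical axis, linear from 0) in 6 bins of neuron share (horizontal axis, bin 1 the most progenitor-like and bin 6 the most neuron-like, bounds 0.1, 0.25, 0.5, 0.75 and 0.9), with 1 line per library and exact 95% Poisson intervals. NEUROD2 and NEUROD6 rose to the last bins, EOMES and NEUROD4 peaked in bins 3 or 4, and NEUROG1 fell to 4.97 CPM or less in bins 5 and 6 of each library.

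In the test across ranges, with the library as a block, 6 of 8 members were called higher in the middle than at the progenitor end, where 17.5% of 14579 genes were. These were NEUROD2 (log2 3.52, standard error 0.21), NEUROD6 (3.36, 0.26), NEUROD1 (3.11, 0.23), NHLH1 (3.03, 0.24), EOMES (1.38, 0.21) and NEUROD4 (1.17, 0.31), all with an edgeR adjusted p of 0.00931 or less. Leaving out any single library kept these 6 calls. NEUROG1 (0.07) and NEUROG2 (0.41) were not called. From the middle to the neuron end, 3 members were called, with 4.42% of all genes in either direction. NEUROG1 fell by 3.05 (standard error 0.45, adjusted p = 0.000870) and EOMES fell by 1.11 (0.20, adjusted p = 0.00418), while NEUROD6 rose by 0.81 (0.21, adjusted p = 0.0390). NEUROD6 was not called without HIP_2MPT or without HIP_4MPT (adjusted p up to 0.139). NEUROD4 gave −0.96 (0.29, adjusted p = 0.0819) and NEUROD2 0.61 (0.18, adjusted p = 0.0762).

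Cells that had fewer than 5 UMIs of both axis lists together had no place in this order, and they carried the highest levels of some members. They numbered 677 in D0 and 347 to 824 per graft, or 5.22% to 14.7% of the cells with 1000 UMIs. EOMES in them was at 54.8 CPM before transplantation, at 319 (HIP) and 318 CPM (PFC) at 2MPT, and at 152 (HIP) and 56.1 CPM (PFC) at 4MPT, above the 3 ranges in 4 of 5 libraries. Of these 4, PFC_4MPT was near its middle, with 56.1 CPM from 98 UMIs against 53.1 CPM from 173 UMIs. The fifth, D0, was at the level of its middle too. NEUROG1 was higher in these cells than in any range in 5 of 5 libraries, with 22.6, 39.8, 150.4, 55.1 and 14.3 CPM in the same order of libraries. NEUROD4 was too, with 14.5, 55.0, 76.5, 16.5 and 12.6 CPM. NEUROD2 stayed under its middle in 5 of 5 libraries, at 54.4 to 249 CPM. This group was noticed after the values were seen and was given no test. It held 17.9% to 28.9% of the EOMES UMIs in the cells of a library with 1000 UMIs and 27.9% to 41.1% of those of NEUROG1.

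The same cells carried UMIs of 12 cell cycle genes at a summed 920 to 2435 CPM, against 77.1 to 179 CPM at the neuron end and 1272 to 2772 CPM at the progenitor end. The summed level of 16 genes of the transition from progenitor to neuron (such as HES6, INSM1 and PPP1R17) was 3089 to 11833 CPM, against 1932 to 3263 CPM at the progenitor end. The middle was above the progenitor end for this list too, with 10 of 16 genes called higher, 2 lower and a median log2 difference of 1.07. This comparison therefore does not set the cells with few axis UMIs apart from the middle. With all cells thinned to 1000 UMIs, 22.5% of the cells with few axis UMIs (exact 95% interval 18.2 to 27.2) had an EOMES UMI in HIP_2MPT and 84 of 420 cells did in PFC_2MPT (16.3% to 24.2%), against 11.6% and 9.04% of middle cells. The share was 11.5% in HIP_4MPT, 4.73% in PFC_4MPT and 3.84% in D0. As background, 0.333% to 1.53% of mouse host barcodes of the grafts (median 1418.5 to 3035 UMIs) and 0.405% of 247 D0 cells rich in TTR, a choroid plexus transcript, had an EOMES UMI. Whether these UMIs came from free RNA was not tested. For NEUROD6 the same background was up to 8.41% of host barcodes in HIP_2MPT, where 4.96% of progenitor-end cells had a UMI, so that share is not read as expression.

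**Figure D3:**
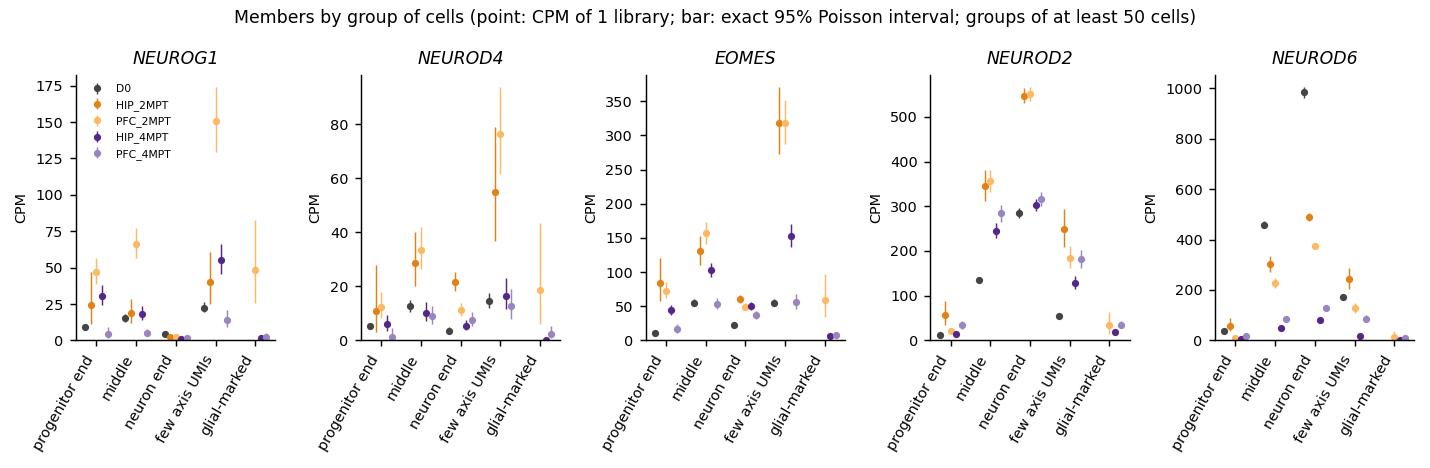
Level of 5 members in CPM (vertical axes, linear from 0) in the 3 ranges, in cells with under 5 axis UMIs and in glial-marked cells (horizontal axis), with 1 point per library, exact 95% Poisson intervals and no point for under 50 cells. NEUROG1, NEUROD4 and EOMES stood highest in cells with few axis UMIs at 2MPT, and NEUROD2 and NEUROD6 at the neuron end.

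Within the progenitor end and the middle, cells with at least 2 UMIs of cell cycle genes (called cycling here) were compared with the others. EOMES was higher in cycling cells in 5 of 5 libraries in both ranges, for example at 336 against 133 CPM in the middle of PFC_2MPT and 124 against 45.0 CPM in that of D0. NEUROG1 was also higher in 5 of 5 libraries in both, and NEUROD4 in 4 of 5 in each. Some of these directions rest on few UMIs. At the progenitor end, NEUROG1 had 6 in cycling cells and 3 in others in HIP_2MPT, and 6 and 1 in PFC_4MPT. NEUROD4 there had 2 and 2 in HIP_2MPT and 1 and 1 in PFC_4MPT, and in PFC_2MPT stood at 12.6 against 12.4 CPM. In the middle, cycling cells of HIP_4MPT and PFC_4MPT held 2 and 1 NEUROD4 UMIs. In D0, NEUROG1 at the progenitor end was at 10.1 against 8.67 CPM, and in PFC_2MPT at 49.2 against 45.6 CPM. NEUROD2, NEUROD6 and NHLH1 were lower in cycling cells of the middle in 5 of 5 libraries, NEUROD2 for example at 96.6 against 391 CPM in PFC_2MPT. The middle held 30 to 102 cycling cells per library, and these are directions over libraries with no test.

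Single cells with an EOMES UMI more often had one of NEUROD4 or NEUROG1. Among ordered cells at full depth, NEUROD4 was found in 27.6% of D0 cells with EOMES and in 1.58% of those without. At 2MPT these shares were 8.05% and 2.55% in HIP, and 13.9% and 1.83% in PFC. At 4MPT they were 6.49% and 1.02% in HIP, and 6.41% and 0.920% in PFC. NEUROG1 was found in 2.56% to 29.4% of cells with EOMES and in 0.253% to 2.72% of cells without. For NEUROD2 the direction differed between D0 (55.6% against 25.8%) and the grafts, where cells with EOMES had it less often in 4 of 4 libraries (39.7% against 48.1% in HIP_2MPT and 42.5% against 57.1% in PFC_2MPT). These shares pool all 3 ranges, and the mix of ranges differed. The neuron end, where NEUROD2 was highest, held 912 of 3707 ordered cells in D0. In grafts it held from 2473 of 4661 (PFC_4MPT) to 5222 of 6252 (HIP_2MPT). The part of this mix in the NEUROD2 directions was not tested. Cells with EOMES were also deeper, with a median of 13603 against 10348 UMIs in D0 and 1378.5 against 1324 UMIs in HIP_2MPT.

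The stages were then compared within each range, so that cells of nearer position were set side by side. Position still differed within a range. The median neuron share at the progenitor end was 0 in D0 and 0.0323 (HIP_4MPT) to 0.111 (HIP_2MPT) in grafts. In the middle it was 0.5 in D0 and higher in each graft, from 0.625 (HIP_2MPT, HIP_4MPT and PFC_4MPT) to 0.643 (PFC_2MPT). At the neuron end it ran from 0.857 (PFC_4MPT) to 0.917 (HIP_2MPT). Axis genes also differed at the progenitor end from D0 to 2MPT. Of 14 each, 3 progenitor genes were called higher and 4 lower, and 1 neuron gene higher and 7 lower. These genes set the neuron share, so a given share may not mean the same in D0 and in grafts. The part of these shifts was not tested. From 2MPT to 4MPT, 2 of 8 members were called lower at the progenitor end (0.248% of all genes tested there), 5 of 8 in the middle (0.657%) and 2 of 8 at the neuron end (0.242%), and none was called higher. NHLH1 was lower in all 3 ranges, by log2 −3.36 (standard error 0.71, edgeR adjusted p = 0.0156), −1.93 (0.31, 0.000406) and −2.56 (0.45, 0.0233). NEUROD6 was lower in the middle (−1.86, 0.32, adjusted p = 0.000909) and at the neuron end (−1.98, 0.32, adjusted p = 0.0165). At the progenitor end, NHLH1 had 12 and 20 UMIs in HIP_2MPT and PFC_2MPT and 3 in each 4MPT library, host barcodes of HIP_2MPT held it at 16.0 CPM, and the difference ran from −4.45 to −2.63 with a library left out. For NEUROD6 at the neuron end, the 4MPT libraries had 79.6 and 128 CPM and the 2MPT libraries 488 and 373 CPM. Without HIP_4MPT neither was called at the neuron end (adjusted p = 0.0522 and 0.139), and without HIP_2MPT NHLH1 was not called at the progenitor end (0.0728). Marks of other cells were still higher at 4MPT in the ranges. At the progenitor end, 7 of 11 glial (median log2 2.33) and 2 of 6 tested inhibitory marks were called higher, where 182 of 14115 genes were. The same counts were 4 of 10 and 5 of 9 in the middle (110 of 14753 genes). At the neuron end they were 1 of 9 and 4 of 9 (58 of 16526 genes). The part of these marks in the differences was not tested.

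NEUROG2 was lower at the progenitor end of 4MPT grafts, with 16.6 and 13.5 CPM in HIP and PFC, against 104 and 93.6 CPM at 2MPT and 190.4 CPM in D0. This was −2.61 between 4MPT and 2MPT (standard error 0.30, edgeR adjusted p = 6.00e-05) and was called in each of 13 other settings and with any 1 graft library left out. The same cells are those with 7 of 11 glial marks higher at 4MPT, whose part in the NEUROG2 difference was not tested. In the middle, NEUROG1 (−1.81, 0.45, adjusted p = 0.0306), NEUROG2 (−1.27, 0.33, adjusted p = 0.0400) and NEUROD4 (−1.59, 0.35, adjusted p = 0.0120) were called too. These 3 calls stood in 8, 7 and 9 of 13 other settings. NEUROG1 differed in PFC, from 66.3 to 4.91 CPM, and was at 18.7 and 18.5 CPM in HIP, and with a library left out its difference ran from −3.01 to −0.53. With DESeq2, only NEUROD6 and NHLH1 were called lower in the middle, and without PFC_2MPT the same 2.

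NEUROD2, lower over all cells, was not called in any range from 2MPT to 4MPT (−0.42 at the progenitor end, −0.28 in the middle and −0.76 at the neuron end, adjusted p of 0.266 or more). At the neuron end it was at 547 and 551 CPM at 2MPT and 303 and 316 CPM at 4MPT. In simulated counts, this comparison found 13, 12 and 13 of 100 changes of 2-fold at the progenitor end, middle and neuron end. The lack of a call therefore does not show that NEUROD2 was unchanged. NEUROD1 was the member with values above 0 here, 0.76 (0.34) in the middle and 0.43 (0.26) at the neuron end, both short of the threshold (adjusted p = 0.394 and 0.600). EOMES had −1.24 (0.35) at the progenitor end, with an adjusted p of 0.0882, and of 0.0126 with the graft site as a block. Whether a change differed between ranges was not tested.

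From D0 to 2MPT, 4 of 8 members were called at the progenitor end (37.5% of all genes), 8 of 8 in the middle (37.4%) and 4 of 8 at the neuron end (39.3%). In the middle, NEUROG1 (log2 1.35), NEUROD2 (1.18), NEUROD4 (1.13) and EOMES (1.19) were higher and NEUROG2 (−0.93), NEUROD1 (−1.54), NEUROD6 (−0.99) and NHLH1 (−0.91) lower, with edgeR adjusted p between 0.00168 and 0.0462. With DESeq2 the 3 calls of NEUROD1, NEUROD2 and NEUROD6 stood. Without PFC_2MPT 2 members were called, and without HIP_2MPT 4. At the progenitor end, NEUROD1 had 2 and 6 UMIs in HIP_2MPT and PFC_2MPT, and host barcodes of HIP_2MPT held it at 2.78 CPM. Its call there stood in 9 of 12 other settings, and with a library left out its difference ran from −2.39 to −1.42. NEUROD1 was lower in all 3 ranges, from 67.8 CPM in the middle of D0 to 20.4 and 31.4 CPM in HIP_2MPT and PFC_2MPT, and from 109.9 to 29.7 and 28.1 CPM at the neuron end. EOMES was higher in all 3, and at the progenitor end rose by 2.34 (standard error 0.42, adjusted p = 0.000223). NEUROD6, not called over all cells, was lower at the neuron end of 2MPT (−1.28, 0.36, adjusted p = 0.0149, and 0.0876 without PFC_2MPT). Of cells with at least 1000 UMIs, the neuron end held 78.6% in HIP_2MPT, 62.5% in PFC_2MPT and 19.8% in D0. D0 neurons also carried Cajal-Retzius marks, at a summed 164 CPM against 2.11 to 5.84 CPM in grafts at the neuron end. From D0 to 2MPT, inhibitory marks were lower (9 of 9 at the neuron end, median log2 −5.48, and 7 of 9 in the middle), 8 of 11 glial marks were higher at the progenitor end (median 3.76), where EOMES rose, and 11 of 12 cell cycle genes were lower over all cells. The part of these marks in the differences from D0 was not tested.

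**Figure D4:**
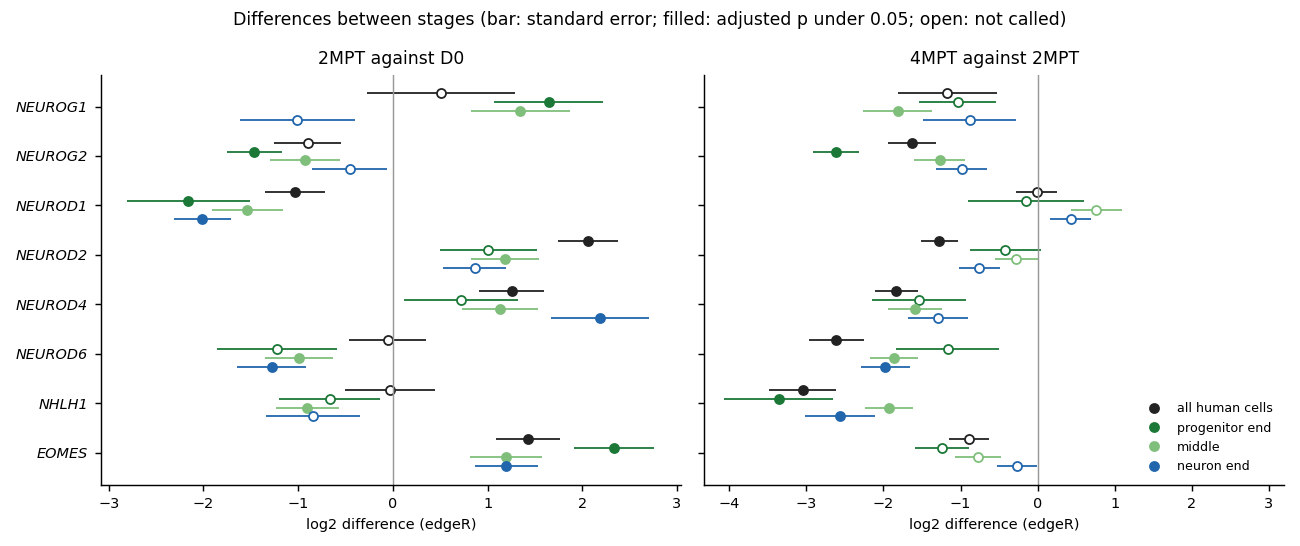
log2 differences of the members (horizontal axis, edgeR) for 2MPT against D0 (left) and 4MPT against 2MPT (right), with 1 row per member and a point for all human cells, the progenitor end, the middle and the neuron end. Bars are standard errors and filled points passed the threshold. From 2MPT to 4MPT, NHLH1 was called in all 4, NEUROD6 in 3, and NEUROD1 in none.

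Between graft sites, no member was called for PFC against HIP with the stage as a covariate, where 15 of 17121 genes were (0.0876%). No member had an unadjusted p under 0.05 in edgeR, and DESeq2 called none. The differences ran from −0.39 (NHLH1, standard error 0.36) to 0.61 (NEUROG2, standard error 0.30, edgeR adjusted p = 1.00). With 1 residual degree of freedom, only large differences could be found. NEUROG1 was at 32.2 CPM in PFC_2MPT against 7.05 in HIP_2MPT, and at 3.72 in PFC_4MPT against 13.5 in HIP_4MPT, and NHLH1 was at 151 CPM in HIP_2MPT against 56.0 in PFC_2MPT.

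Partners and opponents of bHLH factors changed along the axis. From the progenitor end to the middle, 4 of 4 ID genes fell, among them ID4 by 2.92 and ID1 by 2.10 on the log2 scale, and so did 5 of 5 tested HES and HEY genes, among them HES1 by 2.91 and HES5 by 1.80. Of the 3 E proteins, TCF4 rose (0.71) and TCF3 fell by 0.35. Among other neural bHLH genes, BHLHE22 (3.45) and NHLH2 (2.60) rose. Of the 16 transition genes, 10 rose and 2 fell, with SOX4 at 1.55 and SOX11 at 2.18. All of these passed the same edgeR test at an adjusted p of 0.05. That test called 3092 of 14579 genes lower and 2549 higher in the middle.

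Between D0 and 2MPT over all human cells, TCF12 (2.84) and TCF4 (1.40) were higher and TCF3 lower (−1.33), 4 of 4 ID genes were lower (−1.14 to −3.89), and so were HEY1 (−3.23) and HEY2 (−5.17) of 5 tested HES and HEY genes, in a comparison that called 48.3% of all genes. Between 2MPT and 4MPT, 457 of 19074 genes were called in either direction. None of 3 E proteins, 5 tested HES and HEY genes and 5 tested neural bHLH genes outside the members was called. With so few genes called, this does not show that they were unchanged. TCF4 had −0.44, HES1 0.13 and BHLHE22 −1.03 (edgeR adjusted p = 0.0917). Of 4 ID genes, ID1 was higher (2.00). Of the 16 transition genes, DLL1 (1.15), DLL3 (1.18) and CDKN1C (1.78) were higher and PPP1R17, a transcript known from intermediate progenitors, was lower (−2.13, standard error 0.34, adjusted p = 0.00887). The median over these 16 genes was 0.09, against −1.45 over the members. In the middle, 4 of 12 cell cycle genes were lower at 4MPT, among them TOP2A (−1.57) and MKI67 (−1.57), and HES1 was lower too (−1.68, standard error 0.33, adjusted p = 0.00326). Cycling cells made up 13.3% (HIP) and 7.25% (PFC) of the middle at 2MPT, and 2.45% (HIP) and 51 of 1644 cells (PFC) at 4MPT. Their part in the lower NEUROG1 and NEUROD4 levels there was not tested.

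The genes outside the members with the most similar pattern over the 30 pools, among 12138 genes with a mean of at least 5 CPM, differed between members. For NEUROD6 these were UNC5A, MMP17 and CAMKV (r = 0.96 to 0.95), and its most similar member was NHLH1 (0.92). For NHLH1 they were ELAVL3, ACOT7 and AFDN, and for NEUROD2 STMN2, an axis gene, TMSB10 and ASPHD1, with r = 0.97 each. NEUROD1 was most like ELAVL4, also an axis gene, OGA and BCL11B. STMN2 and ELAVL4 are counted in the neuron share that set the pools, so their r is partly fixed by the binning. NEUROG2 was most like LINC01551, KHDRBS1 and EMX1, and NEUROG1 like HNRNPA3, CLSPN and BRCA2 (0.85 to 0.81). EOMES (ATRNL1, KLHL20 and DPP10) and NEUROD4 (RASGEF1C, SFPQ and GNG4) reached r of 0.79 and 0.76 at most outside the members, below the 0.84 between them. The least similar pair of members was NEUROG1 and NEUROD2 (r = −0.41).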

How the data were processed

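The authors deposited UMI counts per gene and cell from 10x Chromium 3' libraries, made with Cell Ranger 3.1 on GRCh38 per the labels, while the headers of the graft files name a later release. Human cells had more than 500 UMIs and 500 genes, log10 genes over log10 UMIs above 0.80, a mitochondrial share under 0.15 and, in grafts, a human share above 0.8 of UMIs in the combined human and mouse reference. Counts were summed per library, and per range, and tested with edgeR 4.0.16 (quasi-likelihood, TMM, Benjamini-Hochberg adjustment over all genes, threshold 0.05) in R 4.3.3, with DESeq2 1.42.0 as an alternative. The 3 groups shared 1 estimate of spread. In the stage tests, p-values measure the spread between HIP and PFC libraries of a stage. In the tests between ranges, they measure how range differences vary over the 5 libraries. For PFC against HIP, they measure what stage and site leave over in the 4 graft libraries. Poisson and binomial intervals are exact and cover counting error only. Doublets were scored with Scrublet in scanpy 1.11.5, whose automatic threshold called too few cells to be used, and none were removed. Genes outside the members were named as up to 4 called genes of a list with the highest mean CPM. The members and lists were chosen with earlier results of these data known. Scripts were tested on simulated data. The result of 1 gene of these lists is not reported here.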

Additional observations from a re-analysis of the deposited data

Results flagged for a closer look

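The change of NEUROG1 from 2MPT to 4MPT ran in opposite directions at the graft sites, with a log2 CPM ratio of 0.93 in HIP and −3.11 in PFC, or −4.05 for PFC minus HIP. NEUROD1 also had opposite signs, −0.46 in HIP and 0.24 in PFC, a difference of 0.70. Each rests on 1 library per stage and site, so neither difference was tested.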

How the results depend on the processing

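Of the members' log2 differences under settings other than leaving out a library, 957 of 1053 kept their direction and side of the threshold, 57 lost a call, 27 gained one and 12 changed sign. With libraries left out in turn, 288 of 368 kept both and 19 changed sign. The causes were not tested. For 4MPT against 2MPT, the count of members called at the progenitor end was 1 with at least 10 axis UMIs and 5 with marked cells kept. In the middle it was 2 with DESeq2 or without the most abundant gene of each axis list, and 3 with RLE normalization, with bounds of 0.35 and 0.65, with an axis that was not thinned or with at least 10 axis UMIs. At the neuron end it was 1 with DESeq2 and 4 with no filter. For 2MPT against D0 it was 2 at the progenitor end with DESeq2. In the middle it was 3 with DESeq2 or without the most abundant axis genes, 4 with an axis not thinned or at least 10 axis UMIs, and 5 without the highest doublet scores. From the middle to the neuron end it was 5 with no filter or an axis not thinned, and 1 with at least 10 axis UMIs or without the most abundant axis genes.

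With a library left out, the counts for 4MPT against 2MPT ran from 0 to 6 over all cells, 1 to 4 at the progenitor end, 2 to 6 in the middle and 0 to 4 at the neuron end. Those for 2MPT against D0 ran from 5 to 6, 3 to 6, 2 to 8 and 3 to 6 in the same order, and that for 4MPT against D0 from 4 to 5. Between ranges they ran from 6 to 7 (middle against progenitor end) and 2 to 4 (neuron end against middle).

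Signs changed as follows, all for log2 differences that were not called in either setting except NEUROG1 for 2MPT against D0 at the progenitor end. NEUROD1 had 0.0066 for 4MPT against 2MPT with no filter and 0.11 at the progenitor end with other bounds. NHLH1 had 0.00049 for 2MPT against D0 and −0.052 for the neuron end against the middle without the highest doublet scores. For PFC against HIP, NEUROD2 had −0.0010 with a human share over 0.9, −0.010 with a mitochondrial share under 0.10 and −0.12 with no stage in the fit, and NEUROD6 −0.46 with no stage. For 2MPT against D0, NEUROG1 had −0.23 at the progenitor end with at least 10 axis UMIs and 0.072 at the neuron end with no thinning, and NHLH1 0.29 at the progenitor end without the most abundant axis genes. NEUROG1 had −0.16 for the middle against the progenitor end in that setting.

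With a library left out, the range over all cells for 4MPT against 2MPT was −2.32 to 0.35 for NEUROG1 and −0.39 to 0.29 for NEUROD1. For 2MPT against D0 it was −1.01 to 1.23 for NEUROG1, −0.41 to 0.24 for NEUROD6 and −0.88 to 0.51 for NHLH1, and for 4MPT against D0 −1.80 to 0.015 for NEUROG1. At the progenitor end it was −0.88 to 0.087 for NEUROD1, −1.19 to 0.19 for NEUROD2 and −2.50 to 0.054 for NEUROD6 (4MPT against 2MPT), and −2.44 to 0.12 for NEUROD6 and −1.39 to 0.43 for NHLH1 (2MPT against D0). NEUROG1 had −0.090 to 0.38 for the middle against the progenitor end and NHLH1 −0.098 to 0.22 for the neuron end against the middle.

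The graft site as a replicate block left the count over all cells for 4MPT against 2MPT at 5 and gave 3 at the progenitor end, where EOMES was added (−1.48). The fits on graft libraries alone and without cells of 20 or more TTR UMIs were chosen after seeing the data. No library could be left out of PFC against HIP. Depth limits NEUROG1 and NEUROD4, with 62 and 100 UMIs in PFC_4MPT, and NHLH1 at the progenitor end, with 3 UMIs in each 4MPT library.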
